A study of Mus musculus with 4 samples.

Results

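Open chromatin was examined at 10 chemokine genes that tumour cells can express: Ccl2, Ccl5, Ccl7, Cxcl1, Cxcl9, Cxcl10, Cxcl11, Cxcl12, Cxcl16 and Cx3cl1. The genes were chosen by name, and each was represented by the peaks that overlapped its gene body (mm10) or the 20 kb on either side of it. These windows held 37 distinct peak regions of the 103629 regions in the series, and 9 of the 10 genes belong to the 21883 protein-coding genes of the annotation. Cxcl11 is annotated as a transcribed pseudogene in this reference strain. The cells were B16F10, a mouse melanoma line of C57BL/6 origin grown in vitro, carrying a guide RNA against Arid1a (sgArid1a, n = 2) or a scrambled guide (sgScramble, n = 2). The product of Arid1a helps the SWI/SNF (BAF) nucleosome remodeller to bind DNA. Chromatin was profiled with Omni-ATAC, a form of ATAC-seq that marks accessible DNA by transposase cutting. The peak lists hold no expression values, so the loss of ARID1A itself was not checked here. Whether the guided cells were clones or pools, and whether replicates came from separate cultures, is not given in the sources used here, so the spread between replicates may be technical.

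Chemokines are small secreted proteins that attract leukocytes through G protein-coupled receptors. CXCL9, CXCL10 and CXCL11 are induced by interferons and recruit CXCR3-bearing T cells and natural killer cells. CXCL1 attracts neutrophils through CXCR2, CXCL12 acts on CXCR4, CXCL16 and CX3CL1 are made as membrane-bound proteins, and the CC chemokines CCL2, CCL7 and CCL5 attract monocytes and T cells. Many of these genes are switched on by NF-κB and interferon regulatory factors, and lie in clusters, so their windows here share regions: 5 of the 37 regions lay in more than 1 gene's window.

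The authors deposited 1 list of broad peaks per library, with 65353 and 71255 peaks in the sgArid1a lists against 82319 and 85613 in the sgScramble lists. In all, peaks covered 53.7 and 62.6 Mb in the sgArid1a lists, against 73.9 and 75.8 Mb in the sgScramble lists, a group difference of -22.3%. Per peak, the median −log10 p was 7.06 and 7.62 in the sgArid1a lists, against 9.20 and 9.02 in the sgScramble lists. These gaps run the same way as the losses of peaks and covered length given here, and their part in the results was not tested. The lists hold no read counts, so depth is unknown, and the absence of a peak says only that the authors' threshold was not passed. All 7 melanocyte markers examined (Mitf, Sox10, Tyr, Tyrp1, Dct, Pmel and Mlana) had a peak at the start site or gene end in every list. Of the leukocyte markers, Ptprc, Cd3e and Itgam had none in any list, and Cd68 had one in replicate 2 of each group. Neither endothelial marker (Pecam1, Cdh5) had a peak, and of the fibroblast markers Col1a1 had one in every list and Pdgfra in none.

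Across the 10 genes, all but 1 of the regions found in both sgScramble lists also had a peak in at least 1 sgArid1a list. The exception lay upstream of Cxcl1. That is 1 of 27 such regions (3.70%, exact Clopper-Pearson 95% interval 0.0937% to 19.0%), against 12.9% over all regions. The interval covers counting error over regions only and contains the background share. Conversely, no region had a peak in both sgArid1a lists alone (0 of the 21 regions found in both, which allows a share of up to 14.3% by a limit of 3 counts and 16.1% by the exact interval), against 1.39% over all regions. Without sgArid1a replicate 2 the first count was 7, and leaving out any of the other 3 libraries gave 2. The second count was 1 to 3 with a library left out. Of the 37 regions, 19 (51.4%) had a peak in every list, against a background of 51.0% of all regions.

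**Figure D1:**
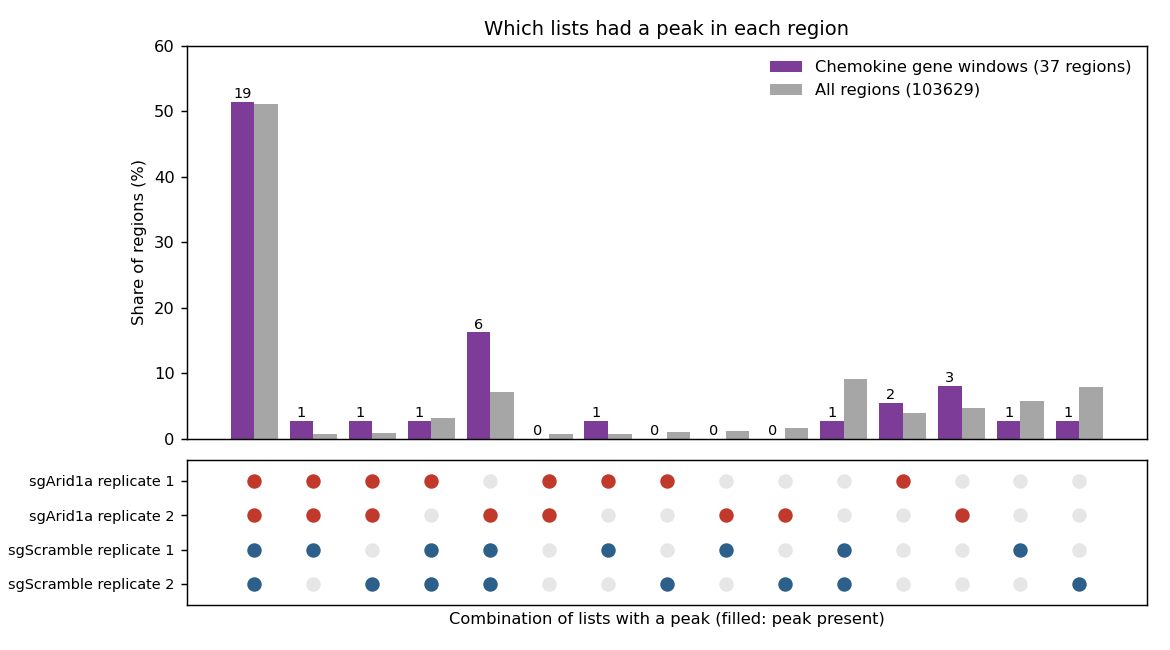
Share of regions (%) by the combination of lists that held a peak, for the 37 regions of the chemokine gene windows (purple, counts above the bars) and all 103629 regions (grey); filled circles mark the lists with a peak. In both, about 51% of regions had a peak in every list, and 6 of the 37 chemokine regions were missing from sgArid1a replicate 1 alone.

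sgArid1a replicate 1 lacked more of the 37 regions than the other libraries. It lacked 12, against 7 for sgArid1a replicate 2, and 7 and 8 for sgScramble replicates 1 and 2. No share over all regions is given beside these counts, so they do not set the chemokine windows apart. Regions that it alone lacked numbered 6 of 37 (16.2%), against a background of 7.20% of all regions. They lay in the windows of Cxcl1 (2 regions), Ccl5, Cxcl9, Cxcl12 and Cxcl16. The shortest of the 4 lists was also that of sgArid1a replicate 1. The 7 regions called in a single list were weak, at fold percentiles of 2.07 to 12.7 and −log10 q of 1.22 to 2.87, where q is the adjusted p that the authors' file gives a peak. A fold percentile here is the rank of the authors' own fold of signal over background within its list, with 100 the strongest peak.

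The length covered by peaks was lower in both sgArid1a libraries than in both sgScramble libraries at 5 genes, Cxcl12, Cxcl1, Cxcl9, Cxcl10 and Ccl5. It was higher in both at none, and the groups overlapped at Cxcl11, Cxcl16 and Cx3cl1. The windows of Cxcl9, Cxcl10 and Cxcl11 share regions, so their values are not separate measurements. Over the 18319 protein-coding genes with a peak in their window, 57.7% were lower in both sgArid1a libraries and 2.53% higher, so 5 of 8 is close to the background. The median difference in covered length over the 8 genes with a peak was -16.4%, and -17.2% over all protein-coding genes. Summed over the merged windows, peaks covered 20163 and 23509 bp in the sgArid1a libraries, against 27106 and 25337 bp in the sgScramble libraries. Group means were 21836 ± 2366 bp and 26221.5 ± 1251 bp (SD, n = 2 each), a difference of -4385.5 bp or -16.7% (exact two-sided permutation p = 0.33). With 2 libraries against 2 no smaller p can be reached, so no gene here can pass a test. Without sgArid1a replicate 1 the difference was -2712.5 bp.

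Dividing each list's values by its own total covered length, a scaling chosen after the results were seen, turned the sum round to a difference of 1654 bp (sgArid1a minus sgScramble). The median over the 8 genes became 7.79%, and 6.57% over all protein-coding genes. On that scale 2 of the 8 genes were lower in both sgArid1a libraries, Cxcl12 and Cxcl1 (background 14.5%), and 2 were higher in both, Cx3cl1 and Cxcl11 (background 34.5%). Cxcl12 and Cxcl1 were thus the members whose covered length was lower in both sgArid1a libraries on either scale.

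**Figure D2:**
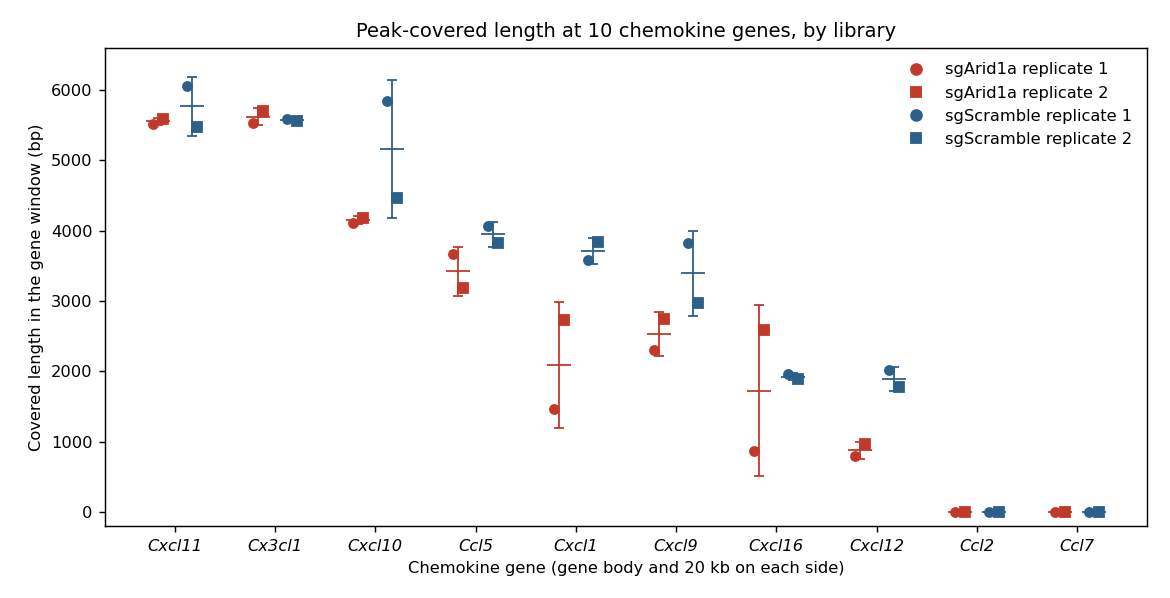
Covered length (bp) in the window of each of the 10 genes, with 1 point per library (circle replicate 1, square replicate 2), sgArid1a in red left of sgScramble in blue; horizontal bars are group means and error bars the SD (n = 2 each). Genes run by mean covered length per kb of window; Cxcl12 and Cxcl1 lie lower in both sgArid1a libraries, also after scaling to each list's total, while Ccl2 and Ccl7 lie at 0 in every library.

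Per kb of window, averaged over the 4 libraries, Cxcl11 was the most covered at 129 bp, followed by Cx3cl1 (111.4 bp), Cxcl10 (110 bp), Ccl5 (82.4 bp), Cxcl1 (69.4 bp), Cxcl9 (63.4 bp), Cxcl16 (40.1 bp) and Cxcl12 (26.3 bp). The 4-library ranges of neighbours in this order overlapped except between Cxcl11 and Cx3cl1 and between Cxcl10 and Ccl5. Of the 5 genes with an annotated start window, Cxcl1, Cxcl10 and Cx3cl1 had a peak over it in every list, and Cxcl9 and Cxcl12 in none. Of the 17491 protein-coding genes with an annotated start window, 54.8% had a peak over it in every list and 42.0% in none. For the other genes the start was not located, and both gene ends were examined. Ccl5 and Cxcl11 had a peak within 1 kb of an end in every list, and Ccl2, Ccl7 and Cxcl16 in none. None of these calls differed between sgArid1a and sgScramble libraries at any of the 10 genes.

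The genes of the 3 interferon-inducible CXCR3 ligands lie side by side on chromosome 5, with Cxcl11 annotated as a transcribed pseudogene in the reference strain. Of the 11 regions of their windows 7 were found in every list, against 51.0% of all regions, and none of the 8 found in both sgScramble lists was missing from both sgArid1a lists, against 12.9% over all regions. Cxcl9 (92321331 to 92328079), Cxcl10 (92346638 to 92348889) and Cxcl11 (92359544 to 92363296) share their windows with Art3, an ADP-ribosyltransferase gene whose body spans both Cxcl10 and Cxcl11. The start sites of Cxcl10 and Cxcl9 are shown because the first lay under a peak of low fold rank in every list and the second under none. The absence of a peak does not show that the Cxcl9 start was closed. Both hold ISRE and κB motifs, the letters bound by interferon-responsive factors and NF-κB. The 250 bases before each start are given 5′ to 3′ on the coding (minus) strand, from RefSeq's GRCm38.p6, with motif matches in capitals.
Cxcl10 (chr5:92348890-92349139): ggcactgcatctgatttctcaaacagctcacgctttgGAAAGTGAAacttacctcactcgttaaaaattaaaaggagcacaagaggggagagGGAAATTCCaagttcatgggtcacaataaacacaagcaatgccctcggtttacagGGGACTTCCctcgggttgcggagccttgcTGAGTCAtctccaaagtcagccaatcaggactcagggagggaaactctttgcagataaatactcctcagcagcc
Cxcl9 (chr5:92328080-92328329): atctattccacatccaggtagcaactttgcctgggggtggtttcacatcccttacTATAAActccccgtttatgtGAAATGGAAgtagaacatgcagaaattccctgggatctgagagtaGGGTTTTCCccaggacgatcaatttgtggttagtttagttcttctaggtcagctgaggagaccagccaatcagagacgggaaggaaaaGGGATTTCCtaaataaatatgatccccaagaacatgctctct
The capitals mark matches on either strand to the ISRE core GAAANNGAA, the κB core GGNNNTTCC, AP-1 TGANTCA and the TATA box TATAAA, and no matches overlap each other in these stretches. Cxcl10 holds the ISRE match GAAAGTGAA, the κB matches GGAAATTCC and GGGACTTCC and the AP-1 match TGAGTCA. Cxcl9 holds the ISRE match GAAATGGAA and the κB matches GGGTTTTCC and GGGATTTCC, with TATAAA farther upstream. Of 32851 promoter windows of the same 250 bases, 7.13% hold the ISRE core, 15.7% the κB core, 6.75% the AP-1 motif and 12.4% TATAAA. A match describes letters only.

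The region over the Cxcl10 start (92348759 to 92349848) was present in every list and ranked low by fold in all of them. Peaks covered 811 and 662 bp of it in the sgArid1a libraries, against 992 and 623 bp in the sgScramble libraries, so the groups overlapped. Its fold percentile was 12.6 and 3.79 in the sgArid1a lists, against 4.43 and 4.98 in the sgScramble lists. The −log10 q was 4.79 and 4.37 in the sgArid1a lists, against 5.91 and 6.54 in the sgScramble lists. The 250 bases printed for Cxcl10 were covered in full in every library, and those of Cxcl9 in none. The next region upstream of Cxcl10, 3536 bp from its start and inside Art3 (92352425 to 92354194), ranked higher in both sgArid1a lists, at percentiles 68.8 and 59.1, against 53.1 and 55.4 in the sgScramble lists. Its covered length went the other way, at 1257 and 1565 bp in the sgArid1a libraries, against 1686 and 1677 bp in the sgScramble libraries. Of the 52885 regions in every list, 20.7% ranked higher in both sgArid1a lists and 40.6% had less covered length in both.

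Inside Cxcl11, 327 bp from its end, the region at 92359871 to 92360988 was the strongest of the cluster. It stood at percentiles 95.0 and 96.2 in the sgArid1a lists, against 92.3 and 97.3 in the sgScramble lists, with 766 and 830 bp covered in the sgArid1a libraries, against 1118 and 953 bp in the sgScramble libraries. Farther out, the region 7725 bp from Cxcl11 ranked lower in both sgArid1a lists, at 73.6 and 66.8, against 88.0 and 78.7 in the sgScramble lists. A pair of sgArid1a peaks had no counterpart in the sgScramble lists: replicate 1 had 662 bp at 92368576 to 92369237 and replicate 2 had 328 bp at 92369256 to 92369583. These do not overlap and stood at percentiles 3.09 and 2.07, with −log10 q of 1.22 and 1.33. They became 1 region, present in both sgArid1a lists alone, when peaks within 1 kb were merged.

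Cxcl9 itself had no peak over its body in any list, and the nearest lay 4054 and 4025 bp away in the sgArid1a lists, against 3870 and 3951 bp in the sgScramble lists. That region (92331949 to 92334003) lies 150 bp inside an end of Art3 and had peaks over 962 and 1131 bp in the sgArid1a libraries, against 2055 and 1211 bp in the sgScramble libraries. Its percentile was also lower in both sgArid1a lists, by a narrow margin (68.4 and 71.3, against 75.3 and 73.8 in the sgScramble lists). The 2 remaining regions of the Cxcl9 window lay nearer to Sdad1, and the one over the end of Sdad1 was present in every list. The Cxcl9 window as a whole had 2532 ± 311 bp under peaks in the sgArid1a libraries and 3395 ± 600 bp in the sgScramble ones. The Cxcl10 window had 4149 ± 55.2 bp in sgArid1a against 5157.5 ± 981 bp in sgScramble libraries, and the Cxcl11 window 5555 ± 46.7 bp in sgArid1a against 5768.5 ± 418 bp in sgScramble libraries (SD, n = 2 each). The gap at Cxcl10 was -1008.5 bp with all libraries, -315 bp without sgScramble replicate 1 and -1702 bp without sgScramble replicate 2. At Cxcl9 it was -863 bp, and -439 bp without sgScramble replicate 1, and at Cxcl11 -213.5 bp, which turned to 82 bp without that library. After scaling to each list's total the gap was 3.86% at Cxcl10, -4.27% at Cxcl9 and 24.5% at Cxcl11.

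**Figure D3:**
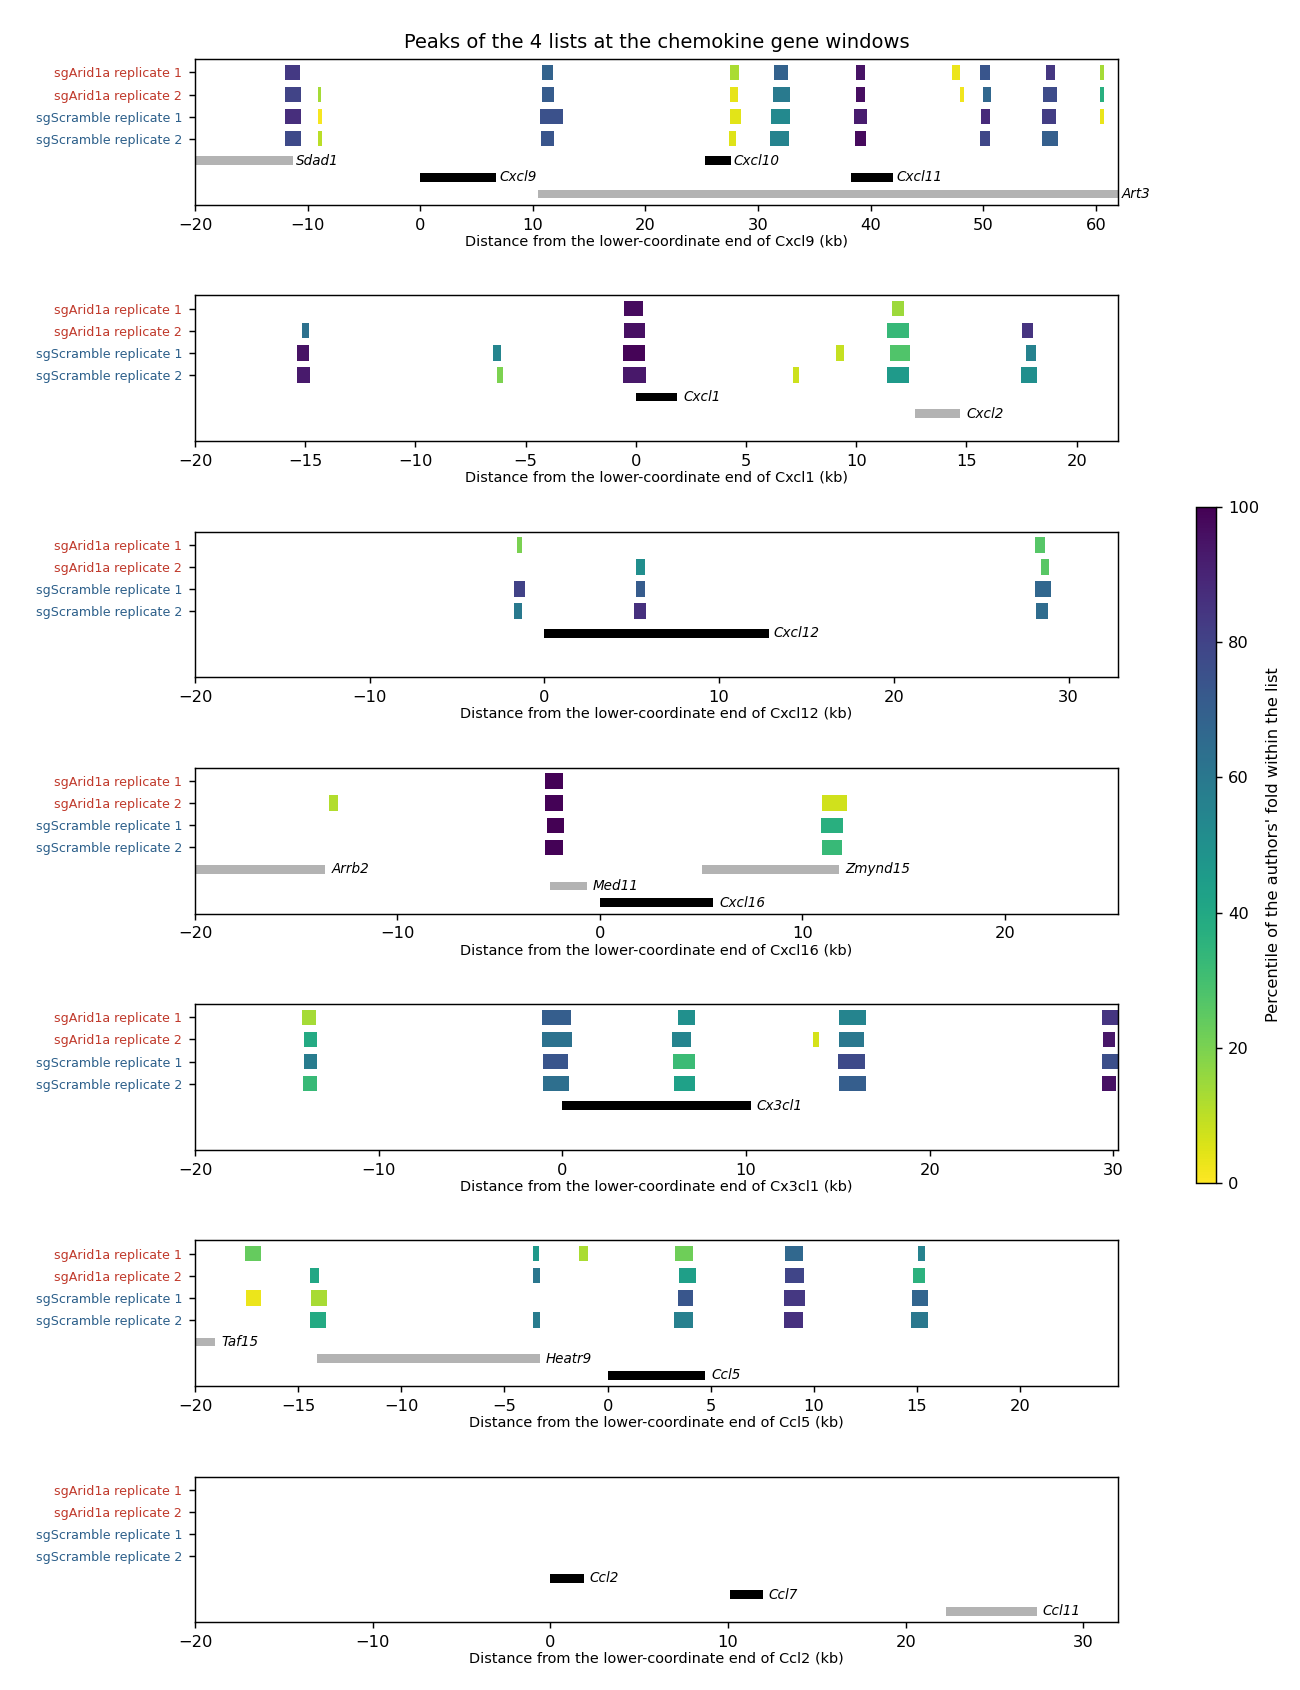
Peaks of the 4 lists in the merged windows, sgArid1a above sgScramble, with distance (kb) from the lower-coordinate end of the first gene named; boxes are peaks coloured by fold percentile within their list, black bars are the 10 chemokine genes and grey bars other protein-coding genes. The Ccl2 and Ccl7 window is empty, the start region of Cxcl1 ranks high in every list, and each Cxcl12 region is weaker or missing in the sgArid1a lists.

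Cxcl1, the neutrophil-attracting CXCR2 ligand, had a peak over its start site in every list, while upstream regions had lower ranks in, or were missing from, the sgArid1a lists. The gene lies on chromosome 5 at 90891245 to 90893121, next to its relative Cxcl2. The 250 bases before its start are shown because they lay under a peak in every library, on the plus strand, with κB core matches in capitals.
Cxcl1 (chr5:90890995-90891244): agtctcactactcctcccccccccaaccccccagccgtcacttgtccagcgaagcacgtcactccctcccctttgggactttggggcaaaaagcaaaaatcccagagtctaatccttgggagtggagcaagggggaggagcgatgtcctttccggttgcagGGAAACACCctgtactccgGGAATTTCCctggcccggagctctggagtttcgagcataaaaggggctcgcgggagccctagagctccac
The matches are GGAAACACC, whose opposite strand fits the motif, and GGAATTTCC, and no ISRE, GAS (TTCNNNGAA), AP-1 or E-box (CACGTG) letters were found in this stretch. The start region (90890647 to 90891716) stood at percentiles 97.0 and 95.9 in the sgArid1a lists, against 99.2 and 93.6 in the sgScramble lists. Ranks this near to 100 leave little room for a difference. Covered length there was lower in both sgArid1a libraries, at 883 and 968 bp, against 978 and 1070 bp in the sgScramble libraries. The −log10 q was 16.7 and 18.7 in the sgArid1a lists, against 30.9 and 21.3 in the sgScramble lists.

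The only region of the 10 windows missing from both sgArid1a lists lay 6037 bp upstream of the Cxcl1 start, at 90884774 to 90885208. sgScramble peaks covered 352 and 246 bp of it, at percentiles 54.3 and 19.8 and −log10 q of 4.82 and 2.07. With only 5 kb on either side of the genes it falls outside the window. A stronger region 14803 bp upstream (90875859 to 90876442) had no peak in sgArid1a replicate 1 and 298 bp at percentile 63.1 in replicate 2, against 516 and 584 bp at percentiles 95.3 and 93.4 in the sgScramble libraries. On the other side, the region 204 bp from an end of Cxcl2 was present in every list and weak, with percentiles of 14.5 and 32.8 in the sgArid1a lists, against 27.4 and 45.9 in the sgScramble lists. The region 2796 bp beyond Cxcl2 was again missing from sgArid1a replicate 1. It stood at percentile 84.9 in replicate 2, against 55.6 and 50.5 in the sgScramble lists, so the 2 sgArid1a libraries went apart there. Over the whole Cxcl1 window, peaks covered 1462 and 2731 bp in the sgArid1a libraries, against 3587 and 3846 bp in the sgScramble libraries. The difference was -1620 bp or -43.6% (exact two-sided permutation p = 0.33). It was -985.5 bp without sgArid1a replicate 1 and -2254.5 bp without sgArid1a replicate 2. After scaling it was -28.6%.

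Cxcl12 encodes the CXCR4 ligand that guides and retains haematopoietic and other cells. It lies on chromosome 6 at 117168535 to 117181368 and had the largest relative difference of the 8 genes with a peak, and each of its 3 regions was less covered in both sgArid1a libraries. The annotated start had no peak in any list. Peaks of the window covered 796 and 966 bp in the sgArid1a libraries, against 2019 and 1774 bp in the sgScramble libraries. Means were 881 ± 120 bp and 1896.5 ± 173 bp (SD, n = 2 each), a difference of -1015.5 bp or -53.5% (exact two-sided permutation p = 0.33). With a library left out the difference ranged from -1138 to -893 bp, and after scaling it was -40.4%.

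The Cxcl12 region 1138 bp upstream of the start (117166782 to 117167397) was covered over 266 and 0 bp in the sgArid1a libraries, against 580 and 459 bp in the sgScramble libraries. Where it was called in sgArid1a cells, in replicate 1, it stood at percentile 20.1, against 80.4 and 59.6 in the sgScramble lists. Inside the gene, 5132 bp past the start (117173667 to 117174337), the pattern of replicates was the reverse: 0 and 531 bp in the sgArid1a libraries, against 538 and 671 bp in the sgScramble libraries. Its percentile was 51.2 in sgArid1a replicate 2, against 71.1 and 86.2 in the sgScramble lists. The region 15246 bp beyond the far end of the gene (117196614 to 117197514) was present in every list, with 530 and 435 bp in the sgArid1a libraries, against 901 and 644 bp in the sgScramble libraries. It showed the widest gap in rank of the 19 regions in every list, at percentiles 26.4 and 25.9 in the sgArid1a lists, against 66.9 and 65.1 in the sgScramble lists. The sgArid1a replicates differed in which of the nearer regions they lacked and were alike at the far one.

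Over the 19 regions in every list, 8 ranked lower in both sgArid1a lists and 2 ranked higher, against 30.9% lower and 20.7% higher over all such regions. By covered length 9 of the 19 were lower in both sgArid1a lists and 1 was higher, against 40.6% and 6.45%. Across all peaks of the merged windows, the mean fold percentile was 50.5 and 51.8 in the sgArid1a lists, against 58.0 and 59.6 in the sgScramble lists, a difference of -7.68 (exact two-sided permutation p = 0.33). With only peaks of −log10 q of at least 5 this difference turned to 4.33, with at least 2 it was -0.74, and with lists of equal length it was -14.53.

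**Figure D4:**
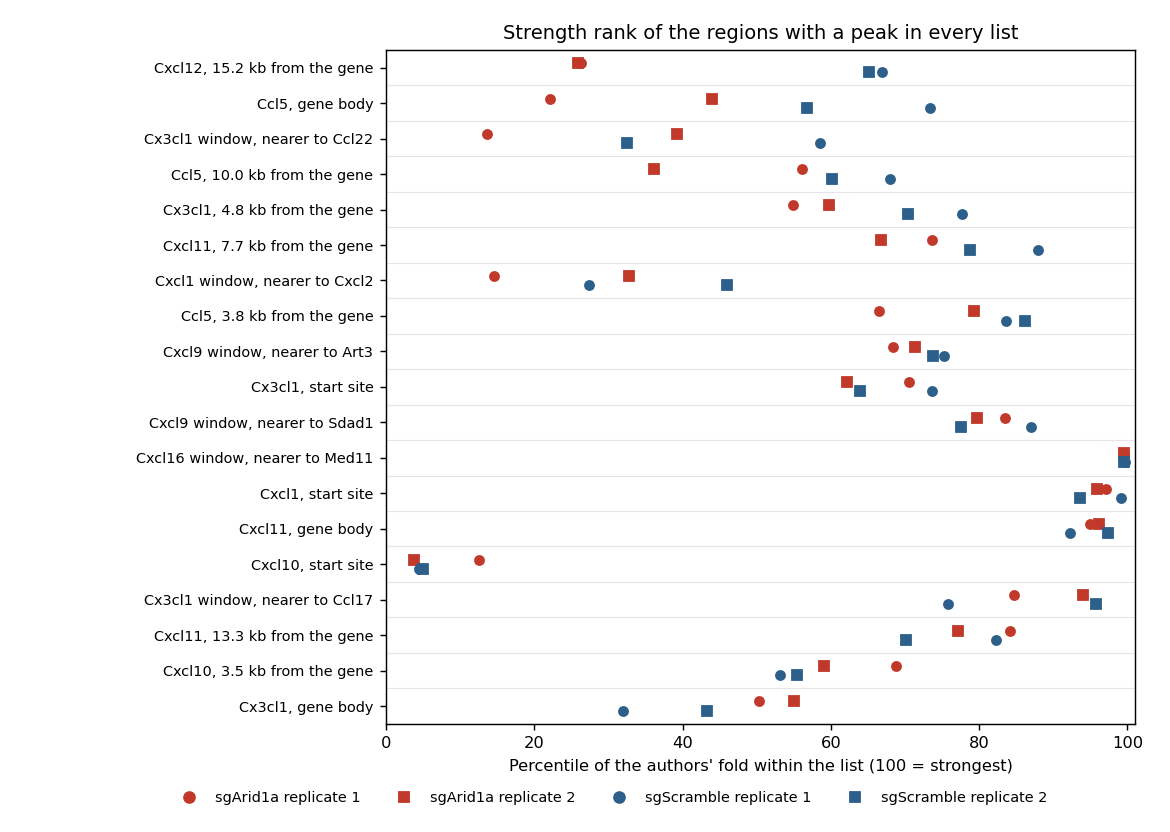
Percentile of the authors' fold within its list (x axis, 100 the strongest) for the 19 regions of the chemokine windows with a peak in every list, 1 point per library, sgArid1a (red) drawn above sgScramble (blue). Regions run from the largest deficit in sgArid1a lists at the top, the region beyond Cxcl12, to the largest excess at the bottom, inside Cx3cl1; the Cxcl10 start region reaches 12.6 at most.

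Of the membrane-bound chemokines, Cx3cl1 (fractalkine, the CX3CR1 ligand) was broadly accessible and changed little in covered length. The gene lies on chromosome 8 at 94772180 to 94782427. Peaks of its window covered 5538 and 5705 bp in the sgArid1a libraries, against 5589 and 5556 bp in the sgScramble libraries, a difference of 49 bp or 0.879%. It turned to -34.5 bp without sgArid1a replicate 2, and scaling to each list's total made it 30.4%. The region over the start (94771061 to 94772721) was the only region in every list with more covered length in both sgArid1a libraries, at 1575 and 1659 bp, against 1385 and 1429 bp in the sgScramble libraries. Its percentile did not separate the groups (70.5 and 62.1 in the sgArid1a lists, against 73.7 and 63.9 in the sgScramble lists). Inside the gene, the region at 94778165 to 94779416 ranked higher in both sgArid1a lists, at 50.2 and 55.0, against 31.9 and 43.3 in the sgScramble lists, while its covered length was lower (901 and 1016 bp, against 1194 and 1168 bp in the sgScramble libraries). The region 4781 bp beyond the gene ranked lower in both, at 54.9 and 59.8 in the sgArid1a lists, against 77.7 and 70.4 in the sgScramble lists. Ccl22 and Ccl17, ligands of CCR4, flank Cx3cl1, and the outermost region on each side lay nearer to them. Both of those regions were present in every list.

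Cxcl16, the CXCR6 ligand, had no peak over its own body or within 1 kb of its ends in any list. On chromosome 11 at 70454389 to 70459984 it is packed between Med11, a Mediator subunit gene, and Zmynd15. The region over Med11 (70451662 to 70452618), 1771 bp from Cxcl16, was the strongest of all 37, at percentiles 99.5 and 99.5 in the sgArid1a lists, against 99.7 and 99.6 in the sgScramble lists. Peaks covered 868 and 921 bp of it in the sgArid1a libraries, against 844 and 889 bp in the sgScramble libraries. The region over an end of Zmynd15 had no peak in sgArid1a replicate 1 and 1220 bp at percentile 7.09 in replicate 2, against 1115 and 1002 bp at percentiles 37.1 and 32.7 in the sgScramble lists. A weak peak 179 bp from Arrb2, the beta-arrestin 2 gene, was called in sgArid1a replicate 2 alone. In the whole window the peaks spanned 1727.5 ± 1216 bp in sgArid1a cells and 1925 ± 48.1 bp in sgScramble cells (SD, n = 2 each). The difference of -197.5 bp rested on sgArid1a replicate 1 and was 662 bp without it.

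Ccl5 encodes RANTES, an attractant of T cells and monocytes. Its 3 regions with a peak in every list each ranked lower in both sgArid1a lists, as did 30.9% of all such regions. The gene lies on chromosome 11 at 83525778 to 83530518, within the non-coding gene Gm32650. The region in the gene body, 457 bp from an end (83528981 to 83530061), stood at percentiles 22.1 and 43.9 in the sgArid1a lists, against 73.4 and 56.7 in the sgScramble lists. Its covered length overlapped between groups, at 880 and 847 bp in the sgArid1a libraries and 719 and 948 bp in the sgScramble libraries. The region 3806 bp outside the gene stood at 66.5 and 79.3 in the sgArid1a lists, against 83.6 and 86.1 in the sgScramble lists. That at 9956 bp stood at 56.1 and 36.1 in the sgArid1a lists, against 67.9 and 60.2 in the sgScramble lists, and covered 361 and 590 bp in the sgArid1a libraries, against 807 and 827 bp in the sgScramble libraries. The other 4 regions of the window were called in 1 to 3 lists, among them 1 over each end of Heatr9 and 1 nearest to Taf15, an RNA-binding protein gene. The Taf15 region stood at 23.7 in sgArid1a replicate 1 and 2.89 in sgScramble replicate 1. The Heatr9 region at 83522139 stood at 46.2 and 60.3 in the sgArid1a lists and 58.3 in sgScramble replicate 2. That at 83511356 stood at 40.5 in sgArid1a replicate 2, against 13.2 and 39.1 in the sgScramble lists. A weak peak 944 bp from Ccl5 (437 bp, percentile 12.7) was called in sgArid1a replicate 1 alone. Over the window, peaks covered 3665 and 3180 bp in the sgArid1a libraries, against 4069 and 3826 bp in the sgScramble libraries, a difference of -525 bp or -13.3%, and -282.5 bp without sgArid1a replicate 2. Within 5 kb of the gene the difference was 369.5 bp, it was 240 bp with lists of equal length, and after scaling it was 12.8%.

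Ccl2, the main monocyte attractant that acts on CCR2, and its neighbour Ccl7 had no peak in their windows in any library. They lie on chromosome 11 at 82035577 to 82037452 and 82045712 to 82047525. A background of 16.3% of protein-coding genes also had no peak within 20 kb in any list. The 4 lists left a stretch of 178046 bp (81996623 to 82174668) without a peak, which holds 5 protein-coding genes, all of them CC chemokines: Ccl2, Ccl7, Ccl11, Ccl12 and Ccl8. The peak nearest to Ccl2 lay 137369 and 38955 bp away in the sgArid1a lists, against 38993 and 39005 bp in the sgScramble lists. These 2 genes could thus not be compared within 20 kb. Within 50 kb, each window held a mean of 195 bp under peaks in the sgArid1a libraries and 412 bp in the sgScramble libraries, a difference of -217 bp (exact two-sided permutation p = 0.67).

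For 3 further lists of genes of the chemokine system, the shares of regions missing from both sgArid1a lists were below the background of 12.9%. Whether these shares differ from the background beyond counting error was not tested. Of 28 other chemokine ligands, 24 had a peak in their window, 15 were less covered in both sgArid1a libraries (62.5%, against 57.7% of all protein-coding genes) and none more (against 2.53%), and 5 of 48 regions found in both sgScramble lists had no sgArid1a peak (10.4%). Their median difference in covered length was -33.8%, against -17.2% over all protein-coding genes. Neighbouring windows among the 24 share peaks and are not separate measurements. Some of them, at -100%, rest on peaks of sgScramble replicate 1 alone. Regions missing from both sgArid1a lists lay in the windows of 6 of these ligand genes. Among them, Ccl25, a gut-homing ligand of CCR9, had 2 such regions, and Ccl26, Cxcl2, Ccl3 and Ccl4 had 1 each. The region of Cxcl2 is the one described upstream of Cxcl1, and Ccl3 and Ccl4, which encode macrophage inflammatory proteins, share theirs. Peaks of both the Ccl3 and the Ccl4 window covered 466 and 435 bp in the sgArid1a libraries, against 1337 and 1149 bp in the sgScramble libraries.

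Of 22 chemokine receptors, 21 had a peak, 8 were less covered in both sgArid1a libraries (38.1%, against 57.7%) and 2 more, with a median difference of -12.8%. Ccr2, the receptor for CCL2, was more covered and was picked out after its values were seen. Its window was covered over 1897 and 2437 bp in the sgArid1a libraries, against 575 and 1589 bp in the sgScramble libraries. Regions missing from both sgArid1a lists numbered 4 of 57 (7.02%), 1 each at Cxcr5, Ackr3, Cxcr3 and Ackr2. Cxcr3 is the receptor for CXCL9, CXCL10 and CXCL11, and Ackr3 a scavenging receptor for CXCL12.

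Among 22 genes for NF-κB, STAT, IRF, AP-1 and related proteins that regulate chemokine genes, every one had a peak. Of these, 16 were less covered in both sgArid1a libraries (72.7%, against 57.7% of all protein-coding genes), with a median difference of -14.3%. Nfkb2 was more covered in both (background 2.53%), with 5981 and 6160 bp in the sgArid1a libraries, against 5341 and 5122 bp in the sgScramble libraries. It was picked out after its values were seen, and also had 1 region missing from both sgArid1a lists. Regions missing from both sgArid1a lists numbered 10 of 103 (9.71%). Irf2, an interferon regulatory factor, had 2, and Irf5, Hif1a, Nfkb1 and Nfkbia, the NF-κB inhibitor gene, had 1 each, as did Rela, Fos and Cebpb, which were named after their values were seen. The missing regions of these last genes were weak in the sgScramble lists, at mean fold percentiles of 0.446 (Fos), 7.52 (Rela) and 15.8 (Cebpb). At Nfkbia peaks covered 4026 and 3979 bp in the sgArid1a libraries, against 4808 and 4894 bp in the sgScramble libraries. None of the 3 lists had a region present in both sgArid1a lists alone.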

How the data were processed

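Open chromatin was measured by ATAC-seq in 4 B16F10 libraries, grouped by the sample titles. Per the labels' protocols, Omni-ATAC was run with 50000 cells per Tn5 reaction. Each library has its own list of broad peaks; the values the authors deposited for a peak are its fold of signal over background (a ratio), −log10 p, −log10 q and a score. The score deposited repeats the −log10 q and was not used. Peak names inside the sgScramble lists start with sgNT, and the titles were followed. The submitters' processing notes name STAR 2.5.3a, HOMER, GRCm38 and mm10 without roles. Neither the tool that called peaks nor any Tn5 offset correction is stated in the sources used here. Since the fold depends on depth and background, it was ranked within a list only.

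Peaks of the 4 lists that overlapped by at least 1 bp were merged into regions, on chromosomes 1 to 19, X and Y. A region belonged to a gene when it overlapped the gene body (RefSeq, GRCm38.p6) extended by 20 kb. Covered length was cut at the window's edges. Start windows and sequences came from RefSeq's promoter table (250 bases before to 50 after a start), which holds 5 of the 10 genes: Cxcl1, Cxcl9, Cxcl10, Cxcl12 and Cx3cl1. For the other genes either gene end within 1 kb was used. Libraries were compared by exact permutation of group means, and members were set beside all regions or genes. The steps were checked on simulated lists. All 10 members are named. So are the genes whose ends lie nearest to a region of the windows, and up to 5 genes per further list, by number of missing or newly present regions and then by the size of the difference in covered length. Results for some other genes are not reported here. The members and lists were chosen with earlier results of these data known. Alternatives were other windows, thresholds, list lengths, merging, overlaps and widths, each library left out, the replicate block and, added after the results were seen, scaling to each list's total. Python 3.11.15, numpy 2.4.6, pandas 2.3.3, SciPy 1.17.1 and matplotlib 3.10.9 were used.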

Additional observations from a re-analysis of the deposited data

How the results depend on the processing

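The difference in covered length (sgArid1a minus sgScramble) kept its direction under every alternative run at Cxcl1, Cxcl12 and Cxcl9. Merging within 1 kb, the 50% overlap and the replicate block leave covered length unchanged and could not turn it. Leaving out a library could not turn it there or in the summed length either, since both sgArid1a values lay below both sgScramble values. The difference in summed length stayed below 0 in all settings (-6058.5 to -2712.5 bp with a library left out) except scaling to each list's total, where it was 1654 bp. Under that scaling the number of genes lower in both sgArid1a libraries was 2 instead of 5, and the difference turned at Ccl5 (447.8 bp), Cxcl10 (177.1 bp), Cxcl11 (1256 bp) and Cxcl16 (200.4 bp). With a library left out, that number of genes was 5 to 7. Leaving out a library can only keep or raise this count, so it could not have fallen. With lists of equal length the difference turned at Ccl5 (240 bp), Cxcl11 (242.5 bp) and Cx3cl1 (-100.5 bp). Within 5 kb it turned at Ccl5 (369.5 bp) and Cxcl16 (28 bp). Cx3cl1 also turned within 50 kb (-334.5 bp), with a −log10 q of at least 2 (-311 bp) or 5 (-419 bp) and with peaks of at least 500 bp (-100.5 bp), and ranged from -34.5 to 132.5 bp with a library left out. Cxcl16 turned with a −log10 q of at least 5 and with the upper 50% by fold (28 bp each), and ranged from -1057 to 662 bp with a library left out. The leave-one-out range was -509 to 82 bp at Cxcl11. The mean fold percentile differed by -7.68 in the main setting, by 4.33 with a −log10 q of at least 5, -0.74 with at least 2, -1.14 with the upper 50% by fold, -4.77 within 50 kb, -10.97 within 5 kb, -14.53 with lists of equal length and by -8.46 to -6.90 with a library left out.

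Regions missing from both sgArid1a lists numbered 1 in the main setting and with lists of equal length. They numbered 4 and 6 with a −log10 q of at least 2 and 5, 2 with a 50% overlap or a 500 bp width, 3 with the upper 50% by fold or 50 kb windows, 0 with 5 kb windows and 2 to 7 with a library left out. Regions in both sgArid1a lists alone numbered 0 in the main setting, 1 with lists of equal length, the upper 50% by fold or merging within 1 kb, and 1 to 3 with a library left out. Apart from the arithmetic of windows, thresholds and fewer libraries, the cause was not tested. With the replicate number as a block the summed difference was the same -4385.5 bp (exact paired permutation p = 0.5, the smallest 2 pairs can give). Deviations of same-numbered libraries correlated at 0.0261 over gene windows. With 2 libraries per group this single value cannot show whether same-numbered libraries shared a culture or batch. Precision is limited by the 2 libraries per group and by the unknown depth.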
